A study of Mus musculus with 59 samples.

Results

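Gadd45a, its paralogues Gadd45b and Gadd45g, the tumour suppressor gene Trp53, and 6 genes that p53 is known to switch on (Cdkn1a, Mdm2, Ccng1, Bbc3, Bax and Phlda3) were followed in embryoid bodies exposed to mouse serum. They are 10 of the 19613 genes measured, and all 10 were found by symbol. Gadd45a was selected on its lower log2 intensity with carrier serum in these same arrays, so its change is given below as a description with no test. The other 9 genes were named for their roles, with earlier results of these data known.

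The embryoid bodies held spinal motor neurons and were grown from HBG3 HB9 mouse embryonic stem cells, whose motor neurons carry a fluorescent reporter driven by HB9. They were incubated for 24 h with serum of male mice, and their RNA was put on Affymetrix mouse exon arrays. Serum for 29 arrays came from mice hemizygous for the mutant human SOD1 transgene G93A (carrier serum), a model of amyotrophic lateral sclerosis, before symptoms appeared. Serum for 30 arrays came from littermates without the transgene (non-carrier serum). All mice were F1 progeny of C57BL/6 and SJL. The cells themselves carried no SOD1 transgene, so the groups differ only in the serum they were given. The time point in the labels is 9 weeks, except on 6 arrays labelled 10 weeks. It is read here as the age of the mice, since the study's methods place them at about that age, although the labels word it as a time of cultures. Values are log2 intensities, and 1 unit is a doubling. They are compared here only within a gene.

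The array titles fall into 9 runs by their wording and numbering, and every run had both kinds of serum. The runs are called motorneuron, HB9MNs, A to F and 10-week. Run C holds 11 arrays, more than the groups in which the study ran its assays, so it is read as more than 1 batch of cells. The titles name no batch. The other runs hold 4 to 7 arrays. Array medians ran from 151 to 183 in intensity, and 0 arrays were identical. The carrier array of run E numbered 138 had the lowest mean correlation with its run (r = 0.979), and a result that depends on it is given without it too. Of the motor neuron markers, Mnx1, Isl1, Lhx3, Chat and Slc5a7 were measured, with means from 8.55 to 10.54, and Slc18a3 was not analysed here. The labels do not say which arrays came from separate mice, so p-values measure only the spread between these arrays. In such mixed cultures, fewer cells of a type and less RNA per cell cannot be told apart.

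p53 is a transcription factor that DNA damage and other stresses stabilise, and Mdm2, itself one of its targets, marks it for breakdown. Its targets stop the cell cycle, repair DNA or start cell death. The GADD45 proteins are small acidic stress proteins that bind PCNA, CDK1 with cyclin B1, and the kinase MAP3K4, which acts on p38 and JNK. Gadd45a answers to p53 through a site inside the gene, but also to stresses that do not need p53, among them endoplasmic reticulum stress and amino acid shortage through the factors ATF4 and CHOP.

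The 250 bases before the transcription start are shown for Gadd45a, for the paralogue Gadd45g, for the p53 target Cdkn1a and for Atf3, a stress gene that followed Gadd45a from array to array. The sequences are those of RefSeq on GRCm38.p6, 5′ to 3′ on the gene's strand, and lie outside the transcribed gene. All 10 genes matched a promoter in that table. The Gadd45a window is chr6:67037408-67037657 on the minus strand, that of Gadd45g chr13:51846425-51846674 on the plus strand, that of Cdkn1a chr17:29090729-29090978 on the plus strand and that of Atf3 chr1:191183334-191183583 on the minus strand. Capitals mark octamers, CCAAT boxes and the C/EBP-ATF core in Gadd45a, Gadd45g and Atf3, and p53 half-sites in Cdkn1a.
Gadd45a: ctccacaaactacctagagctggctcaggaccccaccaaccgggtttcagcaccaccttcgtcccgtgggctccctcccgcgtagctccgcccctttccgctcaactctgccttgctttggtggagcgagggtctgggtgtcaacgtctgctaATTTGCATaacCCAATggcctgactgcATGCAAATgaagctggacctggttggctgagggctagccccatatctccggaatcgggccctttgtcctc
Gadd45g: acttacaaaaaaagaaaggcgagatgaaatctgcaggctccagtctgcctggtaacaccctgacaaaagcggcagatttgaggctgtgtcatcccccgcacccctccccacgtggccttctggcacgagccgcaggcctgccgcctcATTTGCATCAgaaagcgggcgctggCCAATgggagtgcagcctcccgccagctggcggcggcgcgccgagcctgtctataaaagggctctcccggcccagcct
Cdkn1a: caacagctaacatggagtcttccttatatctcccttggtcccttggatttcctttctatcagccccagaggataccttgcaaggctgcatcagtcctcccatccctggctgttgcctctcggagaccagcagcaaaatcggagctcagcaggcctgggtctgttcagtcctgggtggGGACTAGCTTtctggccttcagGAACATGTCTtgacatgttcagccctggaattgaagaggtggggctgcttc
Atf3: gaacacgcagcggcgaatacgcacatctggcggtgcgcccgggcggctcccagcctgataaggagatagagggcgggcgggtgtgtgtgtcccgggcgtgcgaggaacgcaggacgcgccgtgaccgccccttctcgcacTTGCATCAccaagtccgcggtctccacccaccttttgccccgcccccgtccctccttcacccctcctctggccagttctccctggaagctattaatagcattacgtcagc

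Both strands were searched for 4 motifs in 32841 promoter windows of the same length, several for some genes. The Gadd45a window held 2 octamers (ATTTGCAT), from 97 to 90 and from 70 to 63 bases before the start, the second on the opposite strand, with a CCAAT box between them. An octamer was in 1.60% of all windows, and 2 or more were in 0.0974%. The Gadd45g window also held 1 octamer and a CCAAT box, and there the octamer overlapped the C/EBP-ATF core TGATGNAA, which was in 3.45% of windows. The Gadd45b window held 2 CCAAT boxes and no octamer. At least 1 CCAAT box was in 33.9% of windows, and 2 or more were in 10.1%. The C/EBP-ATF core had no match in the window of Gadd45a. Of 9 genes of the ATF4 and CHOP stress response it was in the windows of 3, Atf3, Chac1 and Asns, and not in the other 6, and of the genes most like Gadd45a below it was in that of Pck2 and not in those of Sesn2 and Cyb5r1. The half-site to which p53 binds was in 7.13% of windows. Of the p53 targets, Cdkn1a held 2 matches in the window shown and 0 in a second window of that gene, Mdm2, Ccng1 and Bax held 1 each, and Phlda3 and the 3 windows of Bbc3 held 0. Gadd45a and Trp53 also held 1. A match of letters is a description and does not show that a factor binds there.

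Gadd45a was lower with carrier serum in 7 of 9 runs. On average it stood at 6.97 ± 0.34 (SD) over the 29 carrier arrays and at 7.16 ± 0.43 (SD) over the 30 non-carrier arrays. With carrier serum the lowest, median and highest arrays were at 6.34, 6.98 and 7.74, and with non-carrier serum at 6.61, 7.07 and 8.25, so the groups overlapped widely across runs. Within runs the change was -0.19, a level 0.875 times that with non-carrier serum. Over all genes 13.8% were lower in 7 or more runs, and the median change was 0.016.

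**Figure D1:**
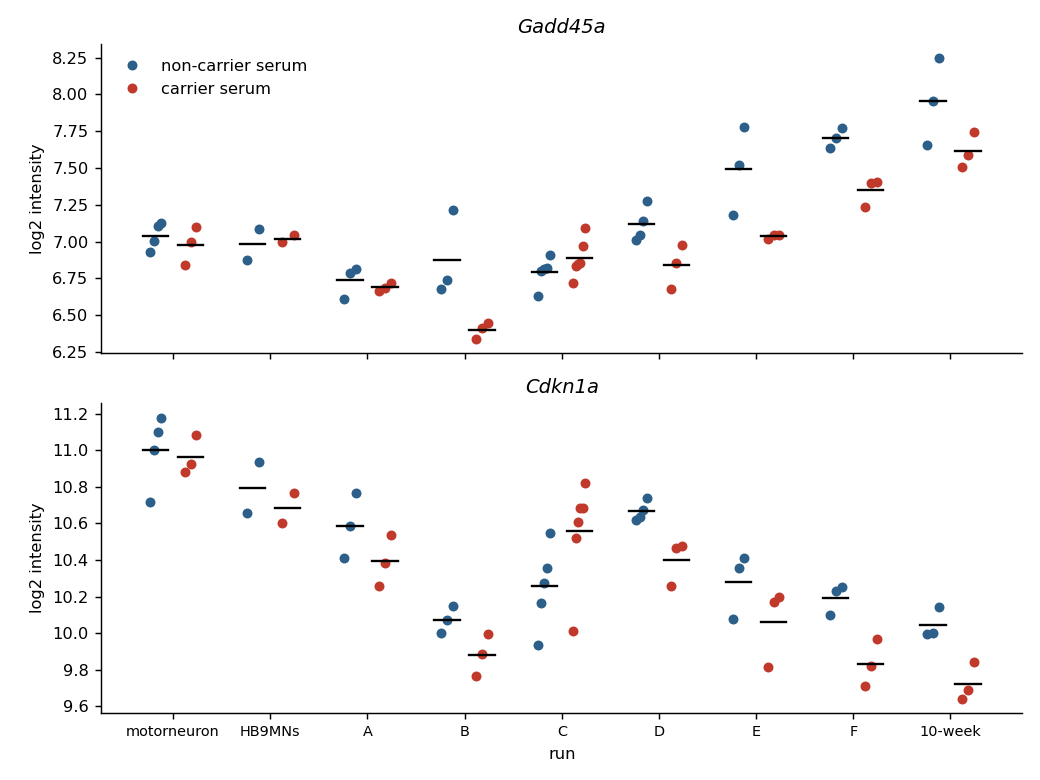
Log2 intensity of Gadd45a and Cdkn1a on each array (points), by run on the horizontal axis, with the mean of each serum as a bar. All carrier arrays lie below all non-carrier arrays in runs B, D, E and F for Gadd45a and in runs B, D, F and 10-week for Cdkn1a, and run C goes the other way for both.

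Gadd45a was lower mainly in 5 of the runs. In run B the carrier arrays were at 6.34, 6.42 and 6.45 and the non-carrier arrays at 6.68, 6.74 and 7.21. In run E the carrier arrays were at 7.02, 7.04 and 7.05 and the non-carrier arrays at 7.18, 7.52 and 7.78. In both runs the carrier arrays lay close together, and the non-carrier arrays were spread above them. In run F the carrier arrays were at 7.23, 7.40 and 7.41 and the non-carrier arrays at 7.64, 7.71 and 7.77. In run D the carrier arrays were at 6.68, 6.85 and 6.98 and the non-carrier arrays at 7.01, 7.05, 7.14 and 7.27. In these 4 runs no carrier array reached the lowest non-carrier array. Carrier arrays lay below all non-carrier arrays in 4 or more runs for 2.30% of all genes, and in 3 or more for 5.69%.

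In the 10-week run the carrier arrays were at 7.50, 7.59 and 7.74 and the non-carrier arrays at 7.65, 7.96 and 8.25, a difference of -0.34 with overlapping ranges. In the remaining 4 runs the difference was small. It was -0.06 in the motorneuron run, -0.05 in run A, 0.04 in the HB9MNs run and 0.09 in run C. The 6 carrier arrays of run C ran from 6.72 to 7.09 and its 5 non-carrier arrays from 6.63 to 6.91. The SD of Gadd45a within runs was 0.11 with carrier serum and 0.18 with non-carrier serum, a difference that was not tested, and in 4 of 9 runs the carrier SD was the larger.

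The paralogue Gadd45g was the only gene of the other 9 that passed the test between the sera, where 2.33% of all genes did. It fell with carrier serum by 0.12 on the log2 scale (SE 0.035, 95% interval -0.19 to -0.05, adjusted p = 0.0457, limma with Benjamini-Hochberg adjustment over all genes), a level 0.919 times that with non-carrier serum. Carrier arrays had a lowest, median and highest level of 7.27, 7.71 and 8.04, and non-carrier arrays of 7.44, 7.83 and 8.20. Gadd45g was lower in 7 of 9 runs, beside 13.8% of all genes in 7 or more. All its carrier arrays were below all non-carrier arrays in runs B and D. The share of all genes separated in that many runs was not counted. In run B the carrier arrays ran from 7.50 to 7.58 and the non-carrier arrays from 7.71 to 7.92. The call was just past the threshold and was lost when run A, B, D, E, F or 10-week was left out, with adjusted p from 0.0870 to 0.214, and without array 138 of run E (adjusted p = 0.0674). It was also lost after quantile normalization (adjusted p = 0.0641).

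Gadd45b, the third of the family, did not pass the test. Of the other 9 genes 7 had a change below 0, as had 38.9% of all genes. It was lower in 4 of 9 runs, with a change of -0.04 (95% interval -0.13 to 0.06, adjusted p = 0.672). In run F the carrier arrays ran from 8.01 to 8.31, below the non-carrier arrays at 8.45 to 8.53. In run B, where Gadd45a differed most, Gadd45b had a difference of 0.25 the other way, with carrier arrays from 8.75 to 8.89 and non-carrier arrays from 8.37 to 8.80. Gadd45b and Gadd45g kept a negative change in all 20 settings tried, which refit the same arrays. The change of Gadd45b came as near to 0 as -0.0029, without run F.

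**Figure D2:**
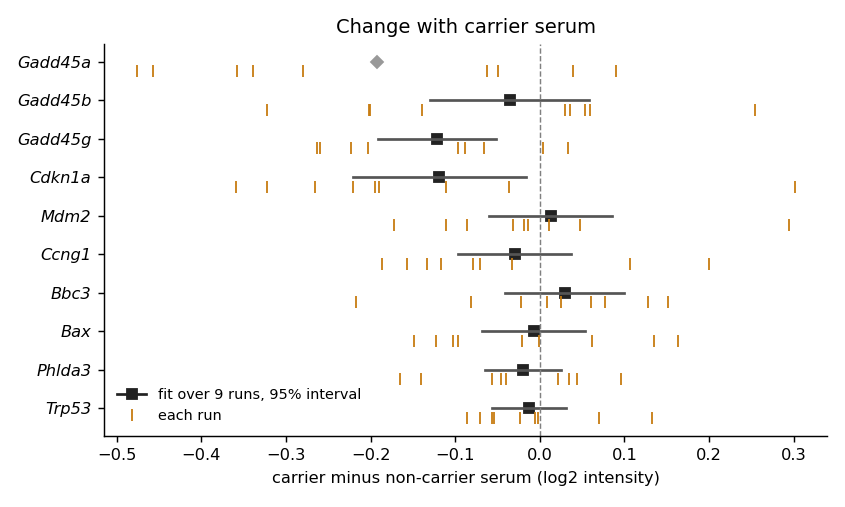
Carrier minus non-carrier change in log2 intensity (horizontal axis) of the 10 genes, from the fit over 9 runs (squares, with 95% intervals) and in each run (ticks). Gadd45a, chosen for this change, is a grey diamond with no interval. The intervals of Gadd45g and Cdkn1a lie below 0, those of the other 7 include 0, and the tick farthest to the right for Cdkn1a and Mdm2 is run C.

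Cdkn1a encodes p21, the inhibitor of cyclin-dependent kinases through which p53 halts the cell cycle. It was lower with carrier serum in 8 of 9 runs, against 5.45% of all genes at 8 or more, but did not pass the test over all genes, with a change of -0.12 (SE 0.051, 95% interval -0.22 to -0.02, adjusted p = 0.182). Carrier arrays had a lowest, median and highest level of 9.64, 10.26 and 11.08, and non-carrier arrays of 9.93, 10.38 and 11.18. In run F the carrier arrays were at 9.71, 9.82 and 9.97 and the non-carrier arrays at 10.10, 10.23 and 10.25. In the 10-week run the carrier arrays were at 9.64, 9.69 and 9.84 and the non-carrier arrays at 9.99, 10.00 and 10.14. In run D they were at 10.26, 10.47 and 10.48 against 10.62 to 10.74. The sera did not overlap in these runs, nor in run B, where carrier arrays reached 10.00 and the non-carrier arrays began there. Carrier arrays of Cdkn1a thus lay below all non-carrier arrays in 4 runs, as in 4 or more for 2.30% of all genes. Runs B, D and F were separated for Gadd45a too, and how many of all genes share these runs was not counted.

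Run C went the other way for Cdkn1a. Its carrier arrays were at 10.01, 10.52, 10.61, 10.69, 10.69 and 10.82, and its non-carrier arrays at 9.93, 10.16, 10.28, 10.36 and 10.55. The mean difference was 0.30, and it was 0.23 and 0.31 in the blocks into which the run was parted. Without run C the change of Cdkn1a was -0.21 with an adjusted p of 4.30e-04 (limma), where 8.16% of all genes passed. Run C was the only run with a difference above 0 for Cdkn1a, so leaving it out must lower the change. With run C kept it passed with 4 motor neuron genes as covariates (adjusted p = 0.0248), where 31.2% of all genes did. It also passed with array weights (adjusted p = 0.0159), where 14.3% did, and it did not pass in the other settings tried. Gadd45a without run C was at -0.26.

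Mdm2, the ubiquitin ligase that holds p53 down, had a change of 0.01 (95% interval -0.06 to 0.09, adjusted p = 0.855). In run C its carrier arrays ran from 9.15 to 9.47, above all non-carrier arrays at 8.94 to 9.11, a difference of 0.29. In run F its carrier arrays ran from 9.22 to 9.27, below the non-carrier arrays at 9.38 to 9.46. Without run C its change was -0.05 (adjusted p = 0.344). Its change was also negative, with run C kept, without the run term, with the covariates and with array weights, and it passed the test in no setting.

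Ccng1, which encodes cyclin G1, was lower in 7 of 9 runs, with a change of -0.03 (95% interval -0.10 to 0.04, adjusted p = 0.612). All its carrier arrays were below all non-carrier arrays in runs B, F and 10-week, with 11.32 to 11.47 against 11.52 to 11.70 in the last. Over all genes 5.69% were so separated in 3 or more runs, and 13.8% were lower in 7 or more. In run C the difference of Ccng1 was 0.20. Ccng1 and Cdkn1a thus both had their highest difference in run C, as had Mdm2, Phlda3, Gadd45g and Gadd45a. In run C the sera overlapped for all of these but Mdm2. How many of all genes had their highest difference in run C was not counted.

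The cell death genes did not pass the test. Bbc3, which encodes the BH3-only protein PUMA, had a change of 0.03 (95% interval -0.04 to 0.10, adjusted p = 0.637) and was lower in 3 of 9 runs. Bax, which encodes a pore-forming protein of the BCL2 family, had a change of -0.0073 (95% interval -0.07 to 0.05, adjusted p = 0.905). Carrier arrays of Bax lay below the non-carrier arrays in runs A and E, and the difference was 0.16 in run F. Phlda3, which encodes an inhibitor of AKT signalling, had a change of -0.02 (95% interval -0.07 to 0.03, adjusted p = 0.618), with carrier arrays below the non-carrier arrays in runs A and E.

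Trp53 itself had a change of -0.01 (95% interval -0.06 to 0.03, adjusted p = 0.748). Carrier arrays ran from 9.91 to 10.69 with a median of 10.30, and non-carrier arrays from 10.04 to 10.53 with a median of 10.38. In run B its carrier arrays, from 10.54 to 10.69, were above the non-carrier arrays, from 10.45 to 10.53. The arrays measure its RNA only, and p53 is known to be set mainly at the protein.

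The intervals of Mdm2, Ccng1, Bbc3, Bax, Phlda3 and Trp53 lay within 0.10 of 0 on the log2 scale. A p that misses the threshold does not show that these genes were equal between the sera. With 4 motor neuron genes as covariates Ccng1 moved to -0.13 and passed (adjusted p = 0.00181, limma), where 31.2% of all genes did. With array weights it passed as well (adjusted p = 0.0334), where 14.3% of all genes did.

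Whether the difference between the sera varied with the run was tested in the same arrays. Of the 9 genes other than Gadd45a, 0 passed that interaction test in limma, as 0.127% of all genes did. Unadjusted, Cdkn1a (p = 0.00751), Ccng1 (p = 0.0195) and Mdm2 (p = 0.0215) were under 0.05 in limma, and their adjusted p did not pass. The share of all genes under that unadjusted threshold with all runs kept was not counted. Without run C the unadjusted p was 0.500 for Cdkn1a, 0.307 for Ccng1 and 0.889 for Mdm2 (limma).

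**Figure D3:**
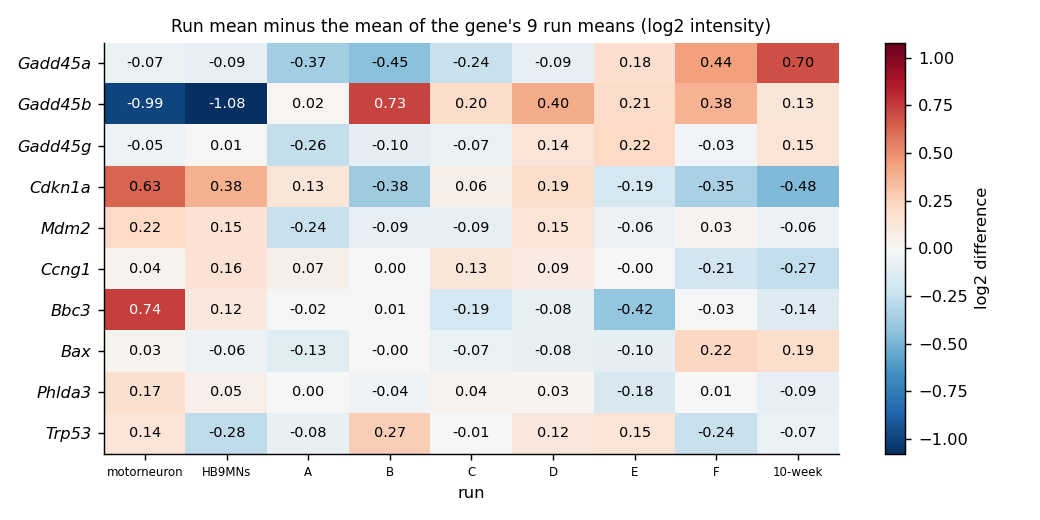
Mean log2 intensity of each of the 10 genes in each run, minus the mean of that gene's 9 run means (colour and printed value), with runs on the horizontal axis. Gadd45b is lowest in the motorneuron and HB9MNs runs, Gadd45a is highest in runs F and 10-week, and Cdkn1a runs from high in the motorneuron run to low in the 10-week run.

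The run means of a gene spanned from 0.34 (Phlda3) to 1.81 (Gadd45b) on the log2 scale, more than the change between the sera in each of the 10. All 10 differed between runs (limma F test over all genes), as did 94.0% of all genes. Gadd45b had the largest share of its variance between runs, 91.3%, and its run means reached from 6.89 in the HB9MNs run to 8.70 in run B. Bbc3 had 85.8% between runs, from 8.21 in run E to 9.37 in the motorneuron run. Trp53 had 82.2%, from 10.02 in the HB9MNs run to 10.56 in run B. Gadd45g had the smallest share, 49.7%.

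Gadd45a had 77.1% of its variance between runs (adjusted p = 1.28e-15, limma), from a mean of 6.64 in run B to 7.78 in the 10-week run. With non-carrier serum alone, its runs stood in the order A (6.74), C (6.79), B (6.88), HB9MNs (6.98), motorneuron (7.04), D (7.12), E (7.49), F (7.70) and 10-week (7.95). The arrays of each run overlapped those of the next in this order, so neighbours do not differ beyond their spread. Cdkn1a had 76.2% between runs. It was lowest in the 10-week run (9.88), where Gadd45a was highest, and highest in the motorneuron run (10.99).

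Marker genes of cell types also differed between runs. The summed level of 4 markers of dividing cells ran from 10.86 in the motorneuron run to 11.54 in run E, and that of 3 endothelial markers from 7.12 in run C to 8.05 in the 10-week run. That of 5 motor neuron markers ran from 11.52 in run A to 11.88 in the HB9MNs run, and that of 4 progenitor markers from 10.84 in the HB9MNs run to 11.42 in the 10-week run. Their part in the run levels of the 10 genes was not tested.

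Taken over all 9 runs together, the marker levels of the 2 sera overlapped. The runs differed in these levels, so this overlap does not measure the difference between the sera within a run. Motor neuron markers ran from 11.43 to 11.92 with carrier and from 11.50 to 11.88 with non-carrier serum, and markers of dividing cells from 10.73 to 11.74 and from 10.77 to 11.55. Progenitor markers ran from 10.80 to 11.52 and from 10.83 to 11.46, and pluripotency markers from 8.15 to 8.94 and from 8.19 to 8.84. Markers of glia ran from 9.47 to 9.93 and from 9.49 to 9.94, those of endothelium from 6.996 to 8.17 and from 6.93 to 8.01, and the 2 measured blood cell markers from 6.70 to 7.42 and from 6.55 to 7.47. Of the 28 markers measured 1 passed the test, beside 2.33% of all genes. Slc5a7, the choline transporter of cholinergic neurons, rose by 0.15 (adjusted p = 0.0410, limma), and this call was lost when run HB9MNs, A, B, D, E, F or 10-week was left out (adjusted p from 0.0519 to 0.176) and with arrays centred on their median (adjusted p = 0.0602). Of the other motor neuron markers, Lhx3 was at -0.09 (adjusted p = 0.105), Mnx1 at -0.03 (adjusted p = 0.588), Chat at -0.02 (adjusted p = 0.533) and Isl1 at 0.05 (adjusted p = 0.114), so that 3 of 5 had a change below 0 (limma). The markers with the largest or best supported change in each other list were Olig2 (-0.09, adjusted p = 0.0936), Pou5f1 (0.12, adjusted p = 0.181), Nanog (0.11, adjusted p = 0.171), Aqp4 (0.06, adjusted p = 0.273), Mbp (-0.06, adjusted p = 0.168), Ptprc (0.05, adjusted p = 0.404), Pecam1 (0.07, adjusted p = 0.192) and Mki67 (0.08, adjusted p = 0.161), all in limma. Their part in the change of Gadd45a was not tested.

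The genes most like Gadd45a were looked for within runs and sera. Each array's deviation from the mean of its run and serum was taken, and Pearson's r with Gadd45a was computed over the 59 arrays for each of the 19612 other genes. The 4 most alike were Cyb5r1 (r = 0.806), Atf3 (0.774), Pck2 (0.772) and Sesn2 (0.769). Atf3 encodes a stress-induced transcription factor, Pck2 the mitochondrial phosphoenolpyruvate carboxykinase, and Sesn2 a stress sensor that restrains mTORC1. Over all genes the median r was -0.014 and the 97.5th percentile 0.356. The genes share arrays, scaling and batches of cells, so r is a description. For Atf3 r was 0.709 without the 2 arrays farthest from the median of Gadd45a and between 0.733 and 0.823 with any 1 run left out, and Spearman's rho was 0.715.

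The p53 genes followed Gadd45a less closely. Phlda3 had an r of 0.332, Cdkn1a of 0.282, Mdm2 of 0.281, Ccng1 of 0.197, Bbc3 of 0.139 and Bax of 0.111. All were under the 97.5th percentile of all genes but in their upper part, from percentile 76.3 (Bax) to 96.7 (Phlda3). With any 1 run left out, r ran from 0.267 to 0.443 for Phlda3, 0.116 to 0.356 for Cdkn1a and 0.228 to 0.310 for Mdm2. It ran from 0.074 to 0.363 for Ccng1, -0.0041 to 0.239 for Bbc3 and 0.0043 to 0.149 for Bax. With run means alone removed, which keeps the difference between the sera, r ran from 0.0080 (Bbc3) to 0.546 (Cdkn1a). The paralogues were at 0.144 for Gadd45g and 0.0048 for Gadd45b, and Trp53 was at -0.096. Among the 10 genes, the pairs with the highest r were Gadd45b with Ccng1 (0.677), Gadd45b with Mdm2 (0.556), Mdm2 with Ccng1 (0.551) and Bbc3 with Bax (0.524). Bax and Trp53 had the lowest, -0.397. The markers of dividing cells had an r with Gadd45a of -0.561 (Mki67), -0.254 (Bub1), -0.190 (Aurkb) and -0.048 (Top2a). The 2.5th percentile of all genes was -0.323.

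**Figure D4:**
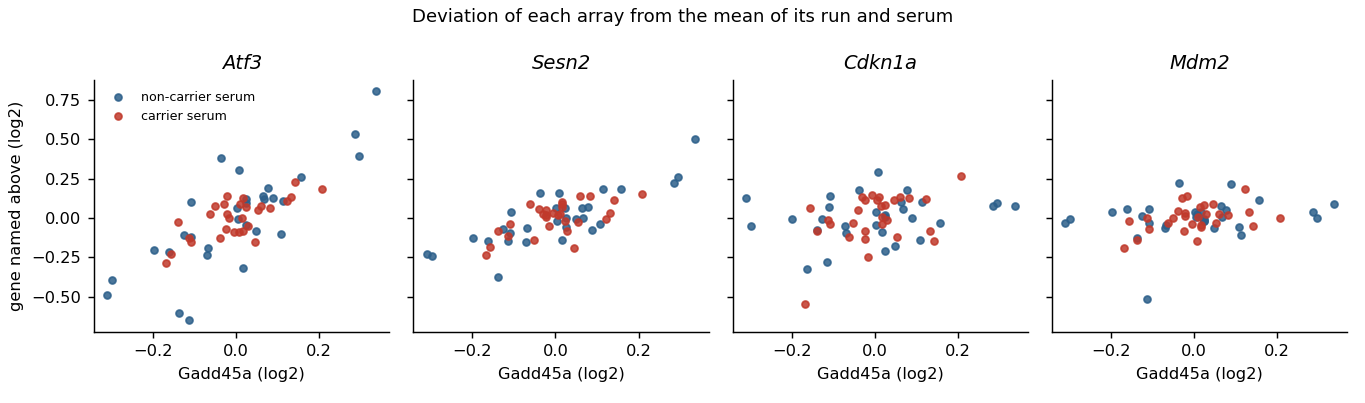
Deviation of each of the 59 arrays from the mean of its run and serum, in log2 intensity, for Gadd45a (horizontal axis) against Atf3, Sesn2, Cdkn1a and Mdm2 (vertical axis), coloured by serum. Points climb together for Atf3 (r = 0.774) and Sesn2 (r = 0.769) and scatter for Cdkn1a (r = 0.282) and Mdm2 (r = 0.281).

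A list of 9 genes of the ATF4 and CHOP stress response, given here because these factors are known to act on Gadd45a, had a median r of 0.560. The genes were listed with earlier results of these arrays known. After Atf3 the highest were Trib3 (0.721), Chac1 (0.715) and Ppp1r15a (0.710). The median r of 24 other p53 targets was 0.162, and the highest of them was Sesn2, which answers to both p53 and ATF4.

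**Figure D5:**
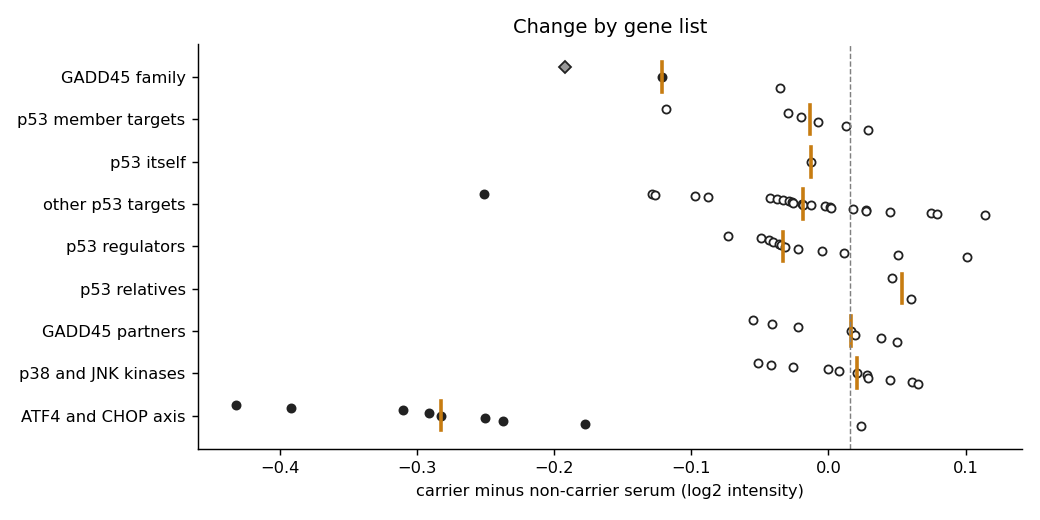
Carrier minus non-carrier change in log2 intensity (horizontal axis) of each gene by list. Filled circles passed the adjusted p of 0.05, open circles did not, the grey diamond is Gadd45a (not tested), bars are list medians, and the dashed line is the median of all genes at 0.016. The ATF4 and CHOP genes lie from -0.43 to -0.18 apart from Cebpb at 0.02, and the other p53 targets lie from -0.25 (Sesn2) to 0.11 (Pmaip1).

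Other p53 targets were measured for 24 of 25 listed genes, and Tigar was not analysed here. Of these, 1 fell and 0 rose at the adjusted threshold in limma, against 1.65% and 0.683% of all genes. At an unadjusted p under 0.05 there were 7 of 24, beside 20.7% of all genes, the share against which such counts are to be read for the lists below too. Their median change was -0.019 beside 0.016 over all genes. The gene that fell was Sesn2, with a change of -0.25 (SE 0.059, adjusted p = 0.0132), a level 0.840 times that with non-carrier serum. Its call was lost without run B, D, E or F (adjusted p from 0.0542 to 0.0936). The next by p, named after their values were seen, were the polo-like kinase genes Plk2 (-0.13, adjusted p = 0.0575) and Plk3 (-0.10, adjusted p = 0.110), the antiproliferative Btg2 (-0.09, adjusted p = 0.177) and the receptor gene Eda2r (-0.13, adjusted p = 0.190), all in limma. The death gene Pmaip1, which encodes NOXA, was at 0.11 (adjusted p = 0.207, limma). Without run C 8.16% of all genes passed, and 57.3% of these calls were lower. There 6 of the list passed as lower, Sesn2, Plk2, Plk3, Btg2 and Eda2r among them.

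The ATF4 and CHOP list had 8 of 9 genes lower at the adjusted threshold, against 1.65% of all genes, and 0 higher, with a median of -0.28. Atf4 fell by 0.25 (SE 0.051, adjusted p = 0.00329) and Trib3, a pseudokinase gene under ATF4 and CHOP, by 0.28 (SE 0.060, adjusted p = 0.00570). Atf3 fell by 0.39 (adjusted p = 0.0201), and Chac1, which encodes a glutathione-degrading enzyme, by 0.43 (adjusted p = 0.0169). Ddit3, the gene of CHOP itself, fell by 0.29 (adjusted p = 0.0298), Ddit4 by 0.31 (adjusted p = 0.0367), the asparagine synthetase gene Asns by 0.24 (adjusted p = 0.0223) and Ppp1r15a, also called Gadd34, by 0.18 (adjusted p = 0.0391), all in limma. Cebpb was at 0.02 (adjusted p = 0.810, limma). The count came to 2 without run B, D or F and to 3 without run E or 10-week. The list was written with earlier results of these arrays known and is not independent evidence of its direction.

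The upstream and partner genes did not pass either. Of 12 regulators of p53, 0 passed in limma and 3 were under an unadjusted p of 0.05. The kinase gene Chek2 had the largest change, 0.10 (adjusted p = 0.145, limma), and the list's median was -0.033. The p53 relatives Trp63 (0.06, adjusted p = 0.330, limma) and Trp73 did not pass. Of 7 genes for GADD45 partners 0 passed and 1 was under an unadjusted p of 0.05, Map3k4 at -0.04 (adjusted p = 0.0807, limma), and the largest change was that of the DNA glycosylase gene Tdg, -0.06 (adjusted p = 0.308, limma). Of 11 p38 and JNK kinase genes 0 passed and 4 were under an unadjusted p of 0.05, with Mapk10 the largest at 0.07 (adjusted p = 0.134, limma).

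The same held for relatives of the p53 targets. Of 3 relatives of Cdkn1a and Ccng1, 0 passed and 0 were under an unadjusted p of 0.05, with Cdkn1b, the gene of p27, at -0.05 (adjusted p = 0.278, limma), and its r with Gadd45a was 0.546. Of 11 measured BCL2 family genes 0 passed and 2 were under an unadjusted p of 0.05, with the survival gene Bcl2l2 at 0.14 (adjusted p = 0.165, limma), while Bcl2 was not analysed here. Of 2 relatives of Phlda3 0 passed and 0 were under an unadjusted p of 0.05, with Phlda1 at 0.03 (adjusted p = 0.662, limma).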

How the data were processed

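RNA of serum-exposed embryoid bodies was profiled on 59 exon arrays. The deposited intensity values were made by the authors with RMA as implemented in aroma.affymetrix, took the mean over the exons of a gene, and removed outlier arrays by Grubbs' test before deposit. The deposited intensities are linear and show no sign of the batch correction on Olig2, Mnx1, Isl1 and Lhx3 that the methods describe as a later step. RMA adjusts array distributions, so a shift shared by all genes is not seen, and the number of arrays limits the precision.

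Log2 intensities were used with nothing added. Runs were read from the titles. The change between sera came from a linear model with the run as a covariate, fitted to all 19613 genes (lmFit, eBayes; limma 3.58.1, R 4.3.3). Tests were two-sided, and a gene was called at a Benjamini-Hochberg adjusted p under 0.05 over all genes. Differences between runs and the run by serum interaction were limma F tests. The procedure was tested on simulated data. The members and gene lists were chosen with earlier results of these data known. Named genes were the 10 members, the called genes of each list, and where none was called the gene of largest change and of smallest p, together with the 5 genes of highest r with Gadd45a, 1 of which is not reported here. Same-numbered arrays of the 8 possible pairs correlated between -0.135 and 0.327 and were not taken as pairs. Alternatives covered the run term, covariates, scaling, filtering, variance models and each run left out.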

Additional observations from a re-analysis of the deposited data

Results flagged for a closer look

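Among the 6 carrier arrays of run C, 1 stood apart for Cdkn1a at 10.01, with the nearest at 10.52. Of the 40 groups of 4 or more arrays examined in this way 1 was set apart, and chance sets apart about 1 in 20 groups.

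The difference between the sera varied with the run for 4 genes that were listed beside the p53 genes (limma interaction test, adjusted over all genes). Chac1 had an adjusted p of 0.00339, with differences from -1.73 in run B to 0.15 in run C. Sesn2 had an adjusted p of 0.0202, with -0.89 in run B and 0.16 in run C. Atf3 had an adjusted p of 0.0358, with -1.45 in run B and 0.32 in run C. Asns had an adjusted p of 0.0413, with -0.86 in run B and 0.13 in run C. Runs B and C were also the lowest and highest for Gadd45a, at -0.48 and 0.09. Without run C 0 of all genes passed this interaction test (1324 at an unadjusted p under 0.05, limma), and the adjusted p was 0.177 for Chac1, 0.449 for Sesn2, 0.603 for Atf3 and 0.267 for Asns.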

How the results depend on the processing

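Gadd45a kept its negative change in all 19 settings in which it was fitted, from -0.26 without run C to -0.16 without run B, and fell below the filter in the one that left out dim genes. The number of runs limits the rest. Without the run term 0 genes were called (805 at an unadjusted p under 0.05, limma), and 0 of the other members, of the other p53 targets or of the ATF4 and CHOP genes. Counts of other p53 targets and of ATF4 and CHOP genes here take only those called lower, and the other counts take both directions. With 4 motor neuron genes as covariates 6126 genes were called (31.2% of all), 3 of the other members and 8 other p53 targets. With array weights the counts were 2803 (14.3%), 3 and 7. Among the other p53 targets called higher with the covariates was Pmaip1 (0.18, adjusted p = 0.0210, limma). The share of calls that were lower was 70.7%, but 59.5% after quantile normalization, 35.5% with the covariates and 51.4% with array weights. Other members called came to 0 after quantile normalization and without the run E array. Leaving out 1 run gave 106 to 1601 called genes (457 with all) and 0 to 2 other members. It gave 0 to 6 other p53 targets called lower and 2 to 8 ATF4 and CHOP genes called lower.

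Other p53 targets called lower were 2 with run C parted, without dim genes, with a trend and robust variance, and under the replicate block, where 513 genes were called. Same-numbered arrays share only a number, and the paired fit with the replicate block changed no call of the 10 genes. Cdkn1a passed with the covariates (adjusted p = 0.0248) and with array weights (0.0159), and Ccng1 did too (0.00181 and 0.0334), in limma. Mdm2 turned negative without the run term (-0.0028), with covariates (-0.059) and with array weights (-0.016), and ran from -0.052 to 0.034 with 1 run left out (negative without run C). Bbc3 turned negative without the run term (-0.00015). Bax turned positive with covariates (0.026) and after quantile normalization (0.0069), and ran from -0.027 to 0.0089 with 1 run left out (positive without A, B or E). None of these was called. Cebpb ran from -0.026 to 0.066 with 1 run left out (negative without the motorneuron run), and Ptprc turned negative after quantile normalization (-6.1e-05). The r of Atf3 with Gadd45a was 0.871 with run means alone removed, 0.709 without the 2 farthest arrays and 0.715 as Spearman's rho. The causes were not tested.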
